A study of Mus musculus with 24 samples.

Results

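Heat shock proteins and other molecular chaperones were followed in CD4+ T cells of 4 states and 2 genotypes. The genes were chosen by the SYMBOL that the deposited array table gives each probe: all probes whose SYMBOL starts with Hspa, Hspb, Hspd, Hspe, Hsph, Hsp90 or Dnaj, or is Cct followed by a digit from 2 to 8. This took 81 of the 25697 probes of the array, with 58 of its 18120 SYMBOLs. Probes counted as detected on an array at a detection p no higher than 0.02, and those detected on 1 or more of the 24 arrays were kept. The kept probes number 54, with 43 SYMBOLs, and 29 of them were detected on all 24 arrays. The other 27 probes were detected on no array, and they leave 15 SYMBOLs with no kept probe, among them Hspb1, Hspa14, Dnaja1 and Dnajc9. One member, Hspa5bp1, is now named Tmem132a and belongs to none of these families. The table lists Hsp90 and some other family genes under older SYMBOLs, so 24 further probes of 18 genes fall outside the rule. Of these, 18 probes of 14 genes were kept, and they are described beside the members and never counted with them. They include Hspca (Hsp90aa1), Hspcb (Hsp90ab1), Tra1 (Hsp90b1), Hsp105 (Hsph1), 1500019G21Rik (Hspbp1) and Zrf2, a further probe of Dnajc2.

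Chaperones bind unfolded or newly made proteins and help them fold, cross membranes or be handed on for destruction. The Hsp70 proteins (Hspa) do so in cycles of ATP hydrolysis that are started by J-domain proteins (Dnaj) and reset by nucleotide exchange factors such as the Hsp110 proteins, while chaperonins enclose their clients in a chamber, with Hspd1 and its lid Hspe1 in mitochondria and the Cct ring in the cytosol. Cytosolic heat shock genes are classically switched on by heat shock factor 1, and chaperones of the endoplasmic reticulum by the unfolded protein response. A T cell that is activated grows and raises its protein synthesis many times over before it divides.

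Naïve CD4+CD62L+ T cells came from spleens and lymph nodes of mice 4 to 6 weeks old and were purified to 95%. The mice were WT or carried a conditional deletion of Pbrm1, which encodes BAF180, a subunit of the PBAF form of the SWI/SNF chromatin remodelling complex. The deletion was driven by cre recombinase under the CD4 promoter and enhancer, and the study places it at a late DN stage of thymocytes. The labels give the strain as Balb/c for both genotypes, whereas the methods of the study describe a mixed background of other strains. Resting Naïve cells were used as purified. Stimulated Naïve cells were held for 24 h on plates coated with anti-CD3 (1 µg/ml) and anti-CD28 (2 µg/ml). Resting Th2 cells were grown from Naïve cells on the same antibodies with IL-4 (10 ng/ml) and anti-IFN-gamma (10 µg/ml), with IL-2 at 100 U/ml for their expansion. Stimulated Th2 cells were resting Th2 cells given PMA (50 ng/ml) and ionomycin (500 ng/ml) for 1.5 h. Each of the 8 groups had 3 arrays, called A, B and C, so the number of arrays limits the precision. The study describes 3 pairs of WT and BAF180-deficient mice behind the arrays, while the labels do not say which arrays share a mouse or culture, and the p-values measure the spread between these arrays.

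Between 8047 and 10689 probes were detected per array, and replicate arrays correlated between 0.949 and 0.989 across probes. The brightest Pbrm1 probe was lower on every BAF180-deficient array than on every WT array of the same state, by 1.01 to 1.86 on the log2 scale, and met the criteria described below in all 4 states. The other kept Pbrm1 probes, both dimmer, had differences of -0.76 to -0.40 and met the criteria in no state. In resting Naïve cells their genotype groups overlapped. All 7 probes of CD4 T cell genes (Cd4, Cd3d, Cd3e, Cd3g, Cd2, Cd5 and Lck) were detected on every array. The 7 probes of myeloid genes (Lyz2, Csf1r, Cd68, Cd14 and Fcer1g) were all detected in resting Naïve cells, with a summed intensity of 849.2 to 3534.9 per WT array, against 309.7 to 356.9 in stimulated Naïve WT cells. Probes of B cell genes such as Cd79a (detected on 18 arrays) and of Cd8b1 were also seen, so the cells were not free of other types. Il4, which marks Th2 cells, rose by 4.59 and 4.09 on stimulation of WT and BAF180-deficient Th2 cells. Levels are given as normalized log2 intensities, and differences as log2 differences (1 is a doubling) with the SE of the fit. Levels of different probes cannot be set against each other on this array. A lower level in such bulk samples may mean fewer cells of a type or less RNA per cell, which cannot be told apart. Before normalization the resting Naïve arrays were dimmer: the median difference over all 14246 kept probes for stimulated against resting Naïve WT cells was 0.19 in the deposited intensities, where the chaperone median was 0.42, and 0.01 after normalization, where it was 0.13. On both scales 33 of the 54 chaperone probes lay above the median of all probes. Over all probes detected on every array the deposited intensities gave a median of 0.72, and normalized values gave 0.02. The 0.72 lies above the chaperone median of 0.42, but that median is over all 54 kept probes, dim ones included. The chaperone probes detected on every array were not taken alone on that scale, so the 0.72 and 0.42 are of unlike sets. With Z-scores the medians were -0.06 over all kept probes and -0.004 over the chaperones. For stimulated against resting BAF180-deficient Th2 cells the deposited intensities gave a median of -0.19 over all probes and -0.12 over the chaperones, against -0.00 and 0.07 after normalization, so the sign of the chaperone median changed with the scale, while 35 and 32 chaperone probes lay above the median of all. Differences given here are therefore relative to the bulk of the probes.

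The 4 sequences shown lie upstream of 5 transcription starts, whose genes carried the responses described below. They were taken from RefSeq (GRCm38.p6), whose promoter table matched 34 of the 43 kept genes. The others were Cct4, Dnajc2, Dnajc5, Dnajc5b, Dnajc11, Dnajc12, Hspa8, Hspa9 and Tmem132a. Each run is the 250 bases before a start site, apart from the first. Hspd1 and Hspe1 start back to back, 215 bases apart, and the whole of that interval is given. Capitals mark matches to the core of a heat shock element (GAANNTTC or TTCNNGAA, each its own reverse complement) and the fixed letters of an endoplasmic reticulum stress element (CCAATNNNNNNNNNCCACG, either strand).

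Hspd1 to Hspe1, chr1:55087933-55088147, plus strand: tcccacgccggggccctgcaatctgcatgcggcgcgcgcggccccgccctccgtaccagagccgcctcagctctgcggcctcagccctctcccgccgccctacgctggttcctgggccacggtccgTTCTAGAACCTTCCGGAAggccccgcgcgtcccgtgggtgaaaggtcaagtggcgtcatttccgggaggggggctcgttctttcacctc

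Hspa1a, chr17:34972157-34972406, minus strand: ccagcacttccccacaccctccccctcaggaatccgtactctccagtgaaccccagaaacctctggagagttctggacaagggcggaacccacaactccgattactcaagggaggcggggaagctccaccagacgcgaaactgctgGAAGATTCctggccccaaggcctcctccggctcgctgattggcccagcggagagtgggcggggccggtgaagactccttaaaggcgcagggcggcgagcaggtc

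Hspa5, chr2:34771840-34772089, plus strand: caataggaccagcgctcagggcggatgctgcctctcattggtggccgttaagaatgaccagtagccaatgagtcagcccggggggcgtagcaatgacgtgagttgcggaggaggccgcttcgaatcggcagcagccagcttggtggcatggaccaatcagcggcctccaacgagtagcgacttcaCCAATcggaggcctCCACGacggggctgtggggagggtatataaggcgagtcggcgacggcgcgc

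Dnajb9, chr12:44210069-44210318, minus strand: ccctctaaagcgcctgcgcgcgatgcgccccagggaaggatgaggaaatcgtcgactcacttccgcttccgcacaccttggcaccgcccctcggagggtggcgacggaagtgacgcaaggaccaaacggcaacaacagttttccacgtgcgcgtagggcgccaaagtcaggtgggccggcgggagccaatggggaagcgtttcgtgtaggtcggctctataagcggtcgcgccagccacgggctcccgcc

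The interval between Hspd1 and Hspe1 holds 3 overlapping heat shock cores, which begin 89, 84 and 79 bases before the Hspe1 start. The Hspa1a window holds 1, beginning 104 bases before the start. Such a core, in either form, was found in 12.8% of all 32851 windows of 250 bases and in 23.4% of the 47 windows of kept members. The stress element stands 65 bases before the start of Hspa5. It was found in 0.113% of all windows, and among kept members only in those of Hspa5 and Dnajc3. The Dnajb9 window holds no match to any of these patterns. CCAAT and CCACG each occur in it, but not at the spacing of the stress element. A match is a description of the letters, not a binding site.

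How the genes responded to activation was asked separately in each genotype. After 24 h on anti-CD3 and anti-CD28, 19 chaperone probes were higher in WT and 20 in BAF180-deficient cells (adjusted p below 0.05 in limma), against 23.6% and 22.3% of all probes, and 7 and 6 were lower, against 20% and 19.3% of all. Some probes passed the detection filter only through the group in which they were high, such as Hspa1a among the lower ones here. Counts over the 29 probes detected on every array are therefore given too. Of those, 16 were higher and 3 lower in WT cells, with a median difference of 1.08, and 15 were higher and 4 lower in BAF180-deficient cells, with a median of 0.85. Of all 5904 probes detected on every array, 30.5% were higher and 27.3% lower in WT and 29% and 25.9% in BAF180-deficient cells, with medians of 0.02 and 0.02. After 1.5 h of PMA and ionomycin, 14 of the 54 probes were higher in WT and 15 in BAF180-deficient Th2 cells (13% and 12% of all probes), and 3 and 5 were lower (14.3% and 13.8% of all). Of the 29, 10 and 12 were higher and 2 and 5 lower, against 16.9% and 16.1% higher and 22.9% and 21.5% lower of the 5904. The lower probes were of Hspb6, Dnajc10 and Dnaja4 in WT cells and of Hspb6, Dnajc10, Hspa2, Dnajb1 and Dnajb6 in BAF180-deficient cells. The 18 probes of family genes under other SYMBOLs held 9 higher and 0 lower after Naïve stimulation and 6 higher and 0 lower after Th2 stimulation in each genotype. At an unadjusted p below 0.05 in limma these were 10 and 10 after Naïve and 9 and 8 after Th2 stimulation. Those unadjusted counts were not set against the share of all probes and are a description.

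**Figure D1:**
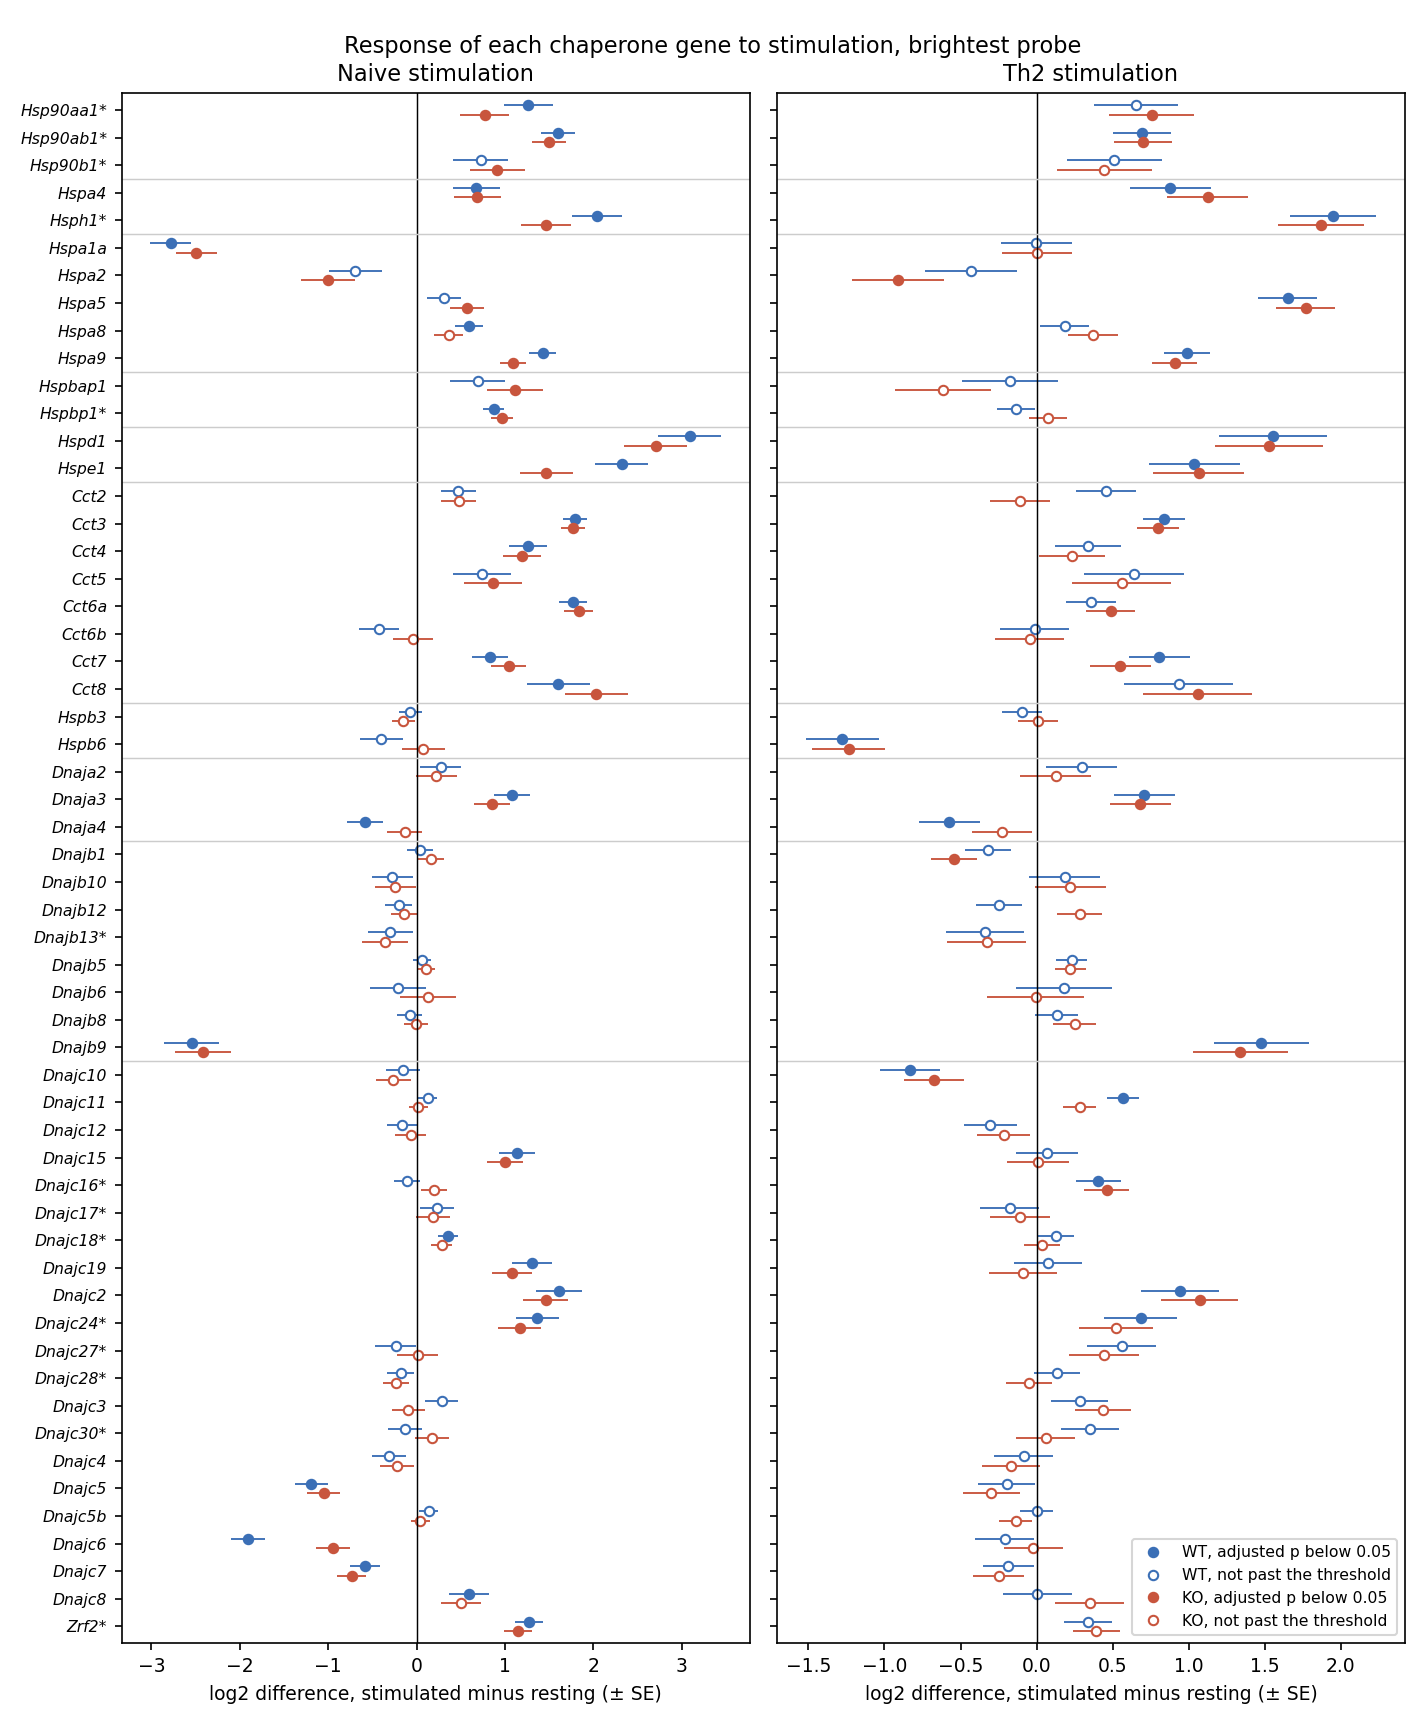
Log2 difference (± SE) of stimulated against resting cells for the brightest kept probe of each chaperone gene, in WT (blue) and BAF180-deficient (red) cells, for Naïve cells on anti-CD3 and anti-CD28 (left) and Th2 cells given PMA and ionomycin (right, on a narrower axis). Points are fitted differences also where a group lay below background, and filled points have an adjusted p below 0.05 in limma. The filled points of Hspa1a (left) and Dnajc11 (right) are a description, since these probes passed the detection filter through the higher state alone. An asterisk marks genes listed under another SYMBOL, and grey lines divide the families. Hspd1 lies farthest right and Hspa1a and Dnajb9 farthest left after Naïve stimulation, while Dnajb9 and Hspa5 lie to the right after Th2 stimulation.

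Of the members, the probes of Hspd1 had the largest rises after Naïve stimulation in both genotypes, and Hspe1 rose with them. Hspd1 (Hsp60, which forms the chamber) stood at 8.38, 7.62 and 7.41 on the 3 resting Naïve WT arrays and at 10.16, 11.70 and 10.81 on the stimulated ones. The groups did not overlap, and the difference was 3.09 (SE 0.36, adjusted p = 5.6e-07), or 8.5-fold. In BAF180-deficient cells it was 2.70 (SE 0.36, adjusted p = 3.3e-06), from a mean of 8.07 ± 0.32 to 10.77 ± 0.70 (SD, n = 3). A second Hspd1 probe rose by 3.52 and 3.19. Hspe1 (Hsp10, the lid) rose by 2.32 (SE 0.30) in WT and by 1.47 (SE 0.30) in BAF180-deficient cells. Its levels were 7.33, 7.12 and 6.41 in resting WT cells and 7.59, 7.76 and 7.32 in resting BAF180-deficient cells, which overlap. The difference between the 2 responses of Hspe1 was -0.86 (95% interval -1.74 to 0.03, adjusted p = 1 in limma), so a smaller response without BAF180 was not shown, nor an equal one.

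Partners of the chaperonin in the mitochondrial matrix moved the same way. Hspa9 (mortalin, the matrix Hsp70) rose from 10.97, 10.92 and 10.62 to 12.28, 12.43 and 12.06 in WT cells. That is a difference of 1.42 (SE 0.15, adjusted p = 1.6e-07) with no overlap, and it was 1.09 (SE 0.15) in BAF180-deficient cells. Its second probe rose by 1.91 and 1.79. Dnaja3 (Tid1, a J protein of the matrix) rose by 1.08 and 0.85, and Dnajc15, which sits at the inner membrane import motor, by 1.14 and 1.0. For Dnajc19, another J protein of the import motor, the probes disagreed: the brighter rose by 1.30 and 1.08, whereas the other stood at -0.27 and -0.41 and did not pass the test. The list of other mitochondrial chaperones and proteases had 10 of 15 probes higher and 0 lower in WT, and 8 and 0 in BAF180-deficient cells. Its members included Grpel1 (the exchange factor of Hspa9; 0.97 and 1.18), Trap1 (the mitochondrial Hsp90; 1.32 and 1.44) and Clpp (a matrix protease; 1.68 and 1.46).

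Hspd1, Hspe1, Hspa9 and Dnaja3 also rose in Th2 cells within 1.5 h of stimulation. Hspd1 went from 9.40, 9.64 and 9.70 to 11.27, 11.06 and 11.06 in WT cells, a rise of 1.56 (SE 0.36, adjusted p = 0.0021), and by 1.53 in BAF180-deficient cells. Hspa9 rose by 0.99 and 0.91 (SE 0.15 each). Hspe1 rose by 1.04 and 1.07. The Hspe1 call was lost without resting Th2 WT array B (0.88, adjusted p = 0.065) and, in BAF180-deficient cells, without resting array B (0.89, adjusted p = 0.067) or stimulated array A (0.93, adjusted p = 0.056). Dnaja3 rose by 0.71 and 0.68, and its call was lost without resting Th2 WT array C (0.56), resting BAF180-deficient array C (0.56) or stimulated BAF180-deficient array B (0.59). Dnajc15 stood at 0.07 and 0.01 and Dnajc19 at 0.07 and -0.09, none past the threshold. The mitochondrial list had 3 of 15 probes higher in either genotype.

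**Figure D2:**
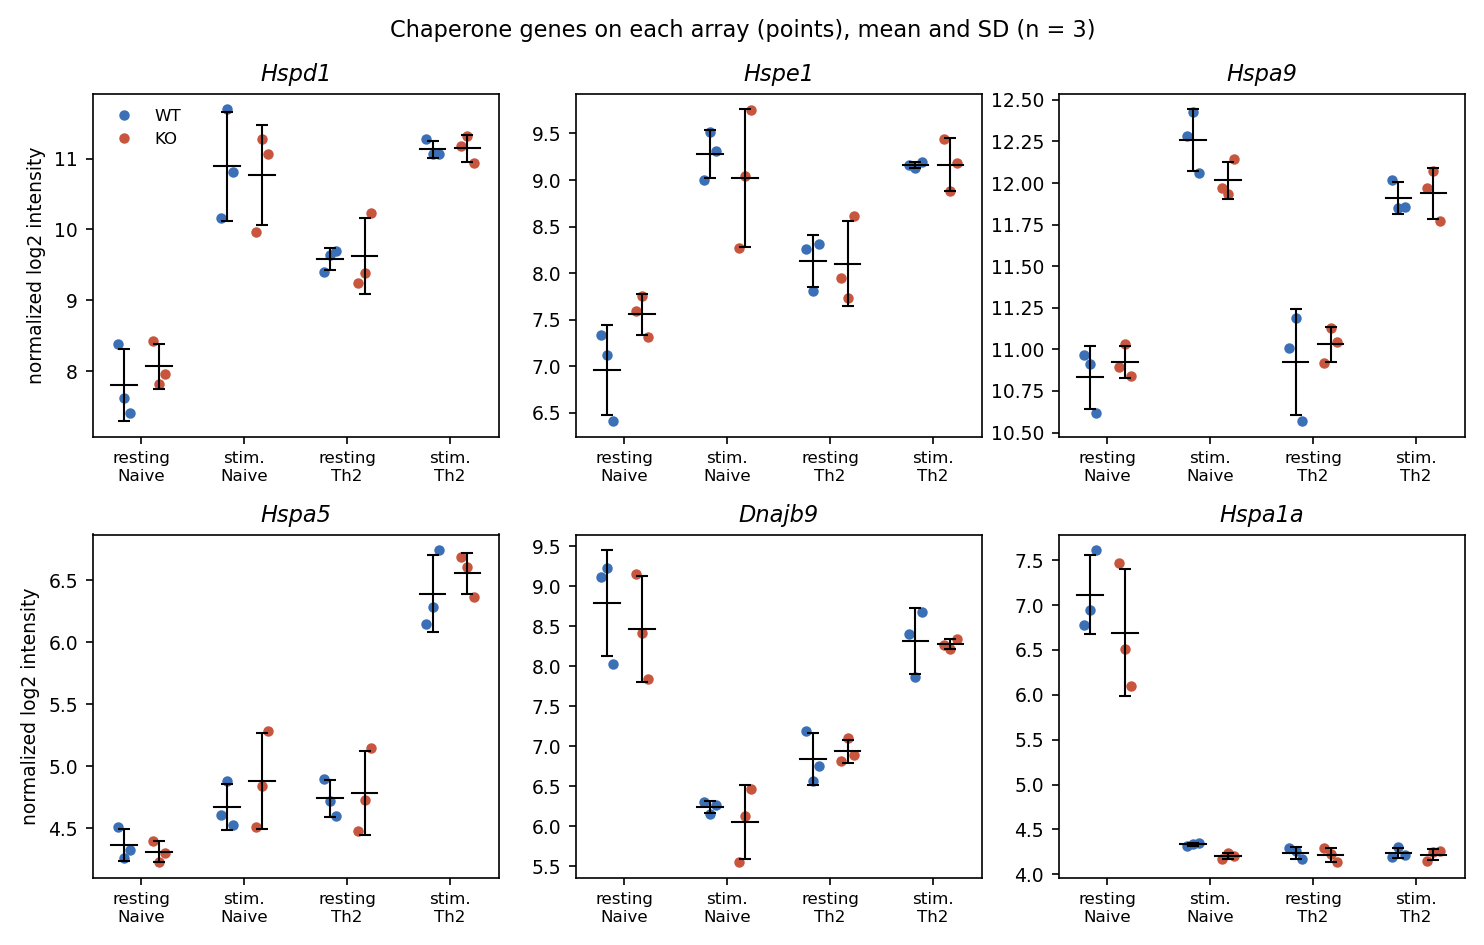
Normalized log2 intensity of the brightest probe of Hspd1, Hspe1, Hspa9, Hspa5, Dnajb9 and Hspa1a on each array (points; WT blue, BAF180-deficient red) in the 4 states, with the mean (bar) and SD (whiskers) of 3 arrays. Each panel has its own axis that does not start at 0; Hspa5 stands out in stimulated Th2 cells and Hspa1a in resting Naïve cells alone.

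The Cct ring folds actin, tubulin and other newly made proteins. After Naïve stimulation 6 of the 9 probes of its subunits were higher in WT and 7 in BAF180-deficient cells, and 0 were lower, with medians over the 9 of 1.26 and 1.20. Cct3 rose from 9.13, 9.22 and 9.05 to 10.80, 11.12 and 10.87 in WT cells, a difference of 1.80 (SE 0.14, adjusted p = 2e-09). Cct6a rose by 1.77 and 1.83, Cct8 by 1.60 and 2.03, and Cct4 by 1.26 and 1.20. Cct7 was not detected on any resting Naïve array, so only bounds can be given, at least 1.22-fold higher in WT and at least 1.49-fold in BAF180-deficient cells. Cct5 missed the threshold in WT (adjusted p = 0.074) and was at least 1.62-fold higher in BAF180-deficient cells, where no resting array detected it. That call was lost without resting array B (adjusted p = 0.067) or C (0.13) or stimulated array B (0.081) or C (0.29). Cct2, not detected on any resting Naïve array either, missed the threshold in both genotypes and passed it with the replicate letter as a block (adjusted p = 0.048 and 0.045). The second Cct3 probe rose by 2.01 and 1.72. Tcp1, the Cct subunit that the rule did not take, rose on both of its probes (1.72 and 2.48 in WT cells). Cct6b, a testis form, was detected on 3 arrays only and stood at -0.43 and -0.04.

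After Th2 stimulation 3 Cct probes were higher in WT and 5 in BAF180-deficient cells, and 0 were lower. Cct3 rose by 0.84 and 0.80 (SE 0.14 each). Cct7 rose by 0.81 in WT cells and stood at 0.55 in BAF180-deficient cells, and Cct8 stood at 0.93 and 1.06. With all arrays Cct8 passed the test in BAF180-deficient cells (adjusted p = 0.033) and missed it in WT (adjusted p = 0.059), where the block brought it to 0.038. In BAF180-deficient cells the calls of Cct6a, Cct7 and Cct8 were each lost on leaving out 1 of 4 arrays. Without resting array A the values were 0.38, 0.49 and 0.93, without resting array B 0.49, 0.49 and 0.89, and without stimulated array B 0.43, 0.48 and 1.03. The remaining array was stimulated array C for Cct6a (0.47) and Cct7 (0.50) and stimulated array A for Cct8 (0.96).

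In the cytosol, Hsph1 and Hsp90ab1 rose after both stimulations in both genotypes. Hsph1, an Hsp110 listed as Hsp105, rose in both settings: from 6.52, 7.41 and 7.29 to 8.85, 9.41 and 9.08 in WT Naïve cells (difference 2.04, SE 0.28, adjusted p = 6.2e-06) and by 1.95 (SE 0.28) in WT Th2 cells. In BAF180-deficient cells it rose by 1.46 and 1.87. Hspa4, the Hsp110 that the rule took, was higher by 0.68 and 0.69 after Naïve stimulation and by 0.88 and 1.12 after Th2 stimulation. The Naïve calls of Hspa4 lie at the threshold (adjusted p = 0.045 and 0.043), and the WT one was lost with the block (adjusted p = 0.051). They were also lost without WT resting array B (0.61) or C (0.47) or stimulated array B (0.50) or C (0.71), and without BAF180-deficient resting array A (0.58) or C (0.68) or stimulated array B (0.55) or C (0.55). The Th2 call in WT cells was lost without resting array A (0.83) or B (0.80) or stimulated array A (0.81) or C (0.81). All 3 kept probes of Hsp90ab1, the constitutive cytosolic Hsp90, rose after Naïve stimulation (1.60, 2.04 and 2.48 in WT cells) and after Th2 stimulation (0.69, 1.07 and 0.98). The Th2 call of its brightest probe in WT cells was lost with Z-score normalization (0.53, adjusted p = 0.30 in limma) and without resting array A (0.48). In BAF180-deficient cells that call was lost without resting array B (0.58). Hsp90aa1, the inducible form, rose by 1.26 in WT and 0.77 in BAF180-deficient cells after Naïve stimulation. The latter call was lost without resting array B (0.76) or C (0.71) or stimulated array C (0.38). After Th2 stimulation Hsp90aa1 stood at 0.65 in WT (adjusted p = 0.092) and at 0.76 in BAF180-deficient cells (adjusted p = 0.04996). The BAF180-deficient call was lost with the block (adjusted p = 0.054) and with any of the 6 arrays left out (0.64 to 0.83). Z-score normalization (0.43), no background correction (0.45) and no detection filter (0.76) lost it as well.

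Hspa8 is the constitutive Hsp70 of the cytosol. Its brightest probe stood at 13.13, 12.51 and 13.00 in resting and 13.29, 13.66 and 13.47 in stimulated Naïve WT cells. The difference of 0.59 (SE 0.16, adjusted p = 0.0052) became -0.44, with an adjusted p of 0.47, when arrays were scaled by Z-scores without background correction. In BAF180-deficient Naïve cells this probe did not pass the threshold. The other Hspa8 probe rose by 1.48 in WT and 1.26 in BAF180-deficient cells. Hspa2, another Hsp70, was lower in BAF180-deficient cells after Naïve (-1.0) and Th2 stimulation (-0.91) and stood at -0.69 and -0.43 in WT cells. Its second probe, detected on 20 arrays, did not pass the test. Dnajc2, a J protein bound to ribosomes, rose by 1.61 and 1.46 in Naïve and by 0.94 and 1.07 in Th2 cells, and the Zrf2 probe of the same gene rose by 1.27 and 1.15 in Naïve cells. Dnajb1 (Hsp40, the stress-inducible partner of cytosolic Hsp70) stood at 0.04 and 0.16 after Naïve stimulation. In Th2 cells it stood at -0.32 in WT and was lower by 0.54 in BAF180-deficient cells, a call lost without resting array B (-0.47) or stimulated array A (-0.45). None of the 3 probes of Dnaja2, a cytosolic J protein, passed the test, and its values ran from -0.25 to 0.30. Dnajb6, which holds back protein aggregation, was lower by 0.78 in stimulated BAF180-deficient Th2 cells on 1 probe and stood at -0.01 on the other. Hspbp1, an exchange factor of Hsp70 listed under another SYMBOL, rose by 0.87 and 0.97 in Naïve cells and stood at -0.14 and 0.07 in Th2 cells.

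The list of cytosolic co-chaperones and heat shock factors had 15 of 26 probes higher and 3 lower after Naïve stimulation in WT, and 15 and 4 in BAF180-deficient cells. Those that rose included Ahsa1 (an activator of the Hsp90 ATPase; 2.56 and 1.88), Stip1 (Hop, which links Hsp70 to Hsp90; 1.86 and 2.03) and St13 (Hip, which stabilizes Hsp70 with its client; 1.97 and 2.08). After Th2 stimulation 9 and 6 probes were higher and 0 were lower. Bag5 (1.41 and 1.55) and Hsf2 (0.85 and 0.92) were among them. Of the 10 probes of prefoldin and other chaperonin helpers, 6 were higher and 2 lower in WT Naïve cells, and both lower ones were of Pfdn5 (-0.98 and -0.86).

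In the endoplasmic reticulum, Hspa5 and Dnajb9 rose in stimulated Th2 cells of both genotypes. Hspa5 (BiP, the Hsp70 of that compartment) was detected on 0 of 6 resting Naïve arrays and on all 6 stimulated Th2 arrays. In WT Th2 cells it rose from 4.90, 4.72 and 4.60 to 6.15, 6.29 and 6.74, a difference of 1.65 (SE 0.19, adjusted p = 1.6e-06), or 3.14-fold. In BAF180-deficient Th2 cells the rise was 1.77 (SE 0.19), from 4.48, 4.73 and 5.15 to 6.69, 6.61 and 6.37. Neither pair of groups overlapped. After Naïve stimulation Hspa5 missed the threshold in WT (adjusted p = 0.22). In BAF180-deficient cells it was at least 1.05-fold higher (adjusted p = 0.023), a call lost without resting array B (adjusted p = 0.069) or stimulated array C (0.17).

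Dnajb9 (ERdj4, a J protein that works with Hspa5) moved in opposite directions. In Naïve WT cells it fell from 9.12, 9.22 and 8.02 to 6.31, 6.16 and 6.26, a difference of -2.55 (SE 0.31, adjusted p = 1.3e-06). In Th2 WT cells it rose from 7.20, 6.57 and 6.76 to 8.40, 7.87 and 8.68, a difference of 1.48 (SE 0.31, adjusted p = 0.0011). BAF180-deficient cells gave -2.42 and 1.34 for the same comparisons. The 4 differences held their direction and call under every alternative and with each array left out. Agents and times differed between the stimulations, and their difference was not itself tested. The other J proteins of the compartment moved less: Dnajc3 (p58IPK) stood at 0.28 and 0.44 in Th2 cells, the latter past the threshold only with the block (adjusted p = 0.033), and Dnajc10 (ERdj5, a disulfide reductase) was lower in Th2 cells by 0.83 and 0.67. The Dnajc10 call in BAF180-deficient cells was lost without resting array C (-0.62) or stimulated array A (-0.61) or B (-0.64), and a second probe stood at -0.02 and 0.04. Hsp90b1 (Grp94, the Hsp90 of the compartment, listed as Tra1) stood at 0.51 and 0.45 in Th2 cells, short of the threshold. In Naïve cells it stood at 0.72 in WT (adjusted p = 0.068) and was higher by 0.91 in BAF180-deficient cells (adjusted p = 0.023), a call lost without resting array A (0.70) or stimulated array C (0.66).

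The other genes of this compartment and of the unfolded protein response had 11 of 23 probes higher and 0 lower after Th2 stimulation in either genotype, with medians of 0.67 and 0.70. Hyou1 (an Hsp110 relative beside Hspa5; 1.30 and 1.02), Pdia6 (a disulfide isomerase; 1.47 and 1.33) and both probes of Atf4 (a transcription factor of the stress response; 1.80 and 1.78 in WT cells) were among them. After Naïve stimulation the list was mixed, with 8 higher and 5 lower in WT and 9 and 4 in BAF180-deficient cells. Genes that fell in Naïve and rose in Th2 cells, as Dnajb9 did, were Herpud1 (-1.09 and 0.93 in WT cells), Serp1 (-0.91 and 0.81) and Syvn1 (-0.66 and 0.67), whose products take part in the clearance or protection of proteins in the reticulum. They were picked out after their values were seen.

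Hspa1a, the stress-inducible cytosolic Hsp70, was detected on the 6 resting Naïve arrays and on no other. It stood at 6.78, 6.95 and 7.61 in WT and at 7.47, 6.51 and 6.10 in BAF180-deficient resting Naïve cells, and between 4.14 and 4.35 on the other 18 arrays. It was at least 5.51-fold lower after 24 h of stimulation in WT and at least 4.18-fold lower in BAF180-deficient cells, lower bounds since the stimulated arrays did not rise above background. Hspa1a passed the detection filter through the resting Naïve arrays alone, so these values are a description and no test is given. Bag3, a co-chaperone of Hsp70, fell too, by 1.18 and 1.31. A list of early genes that cell handling is known to raise was also highest in resting Naïve cells. Its 8 kept probes had a summed intensity of 8084.7 to 10345.7 on the resting and 2453.6 to 3718.7 on the stimulated Naïve arrays. In resting Th2 cells the sum was 945.5 to 1806.0. In stimulated Th2 cells, where Hspa1a was not detected, the list stood higher again, at 1989.9 to 6389.1 in WT and 1833.5 to 4179.0 in BAF180-deficient cells. Of the 8, 7 were lower after Naïve stimulation in either genotype. They included Fos (-5.75 and -5.97) and Dusp1 (-4.73 and -4.29), and Atf3 (-0.58 and -0.88) was the one that did not pass the test. The myeloid probes were lower as well, 7 of 7 in both genotypes, where 20% and 19.3% of all probes were lower. In each genotype 4 of the 7 were detected on no stimulated Naïve array, so this count is a description. What part cell handling or myeloid cells had in the Hspa1a and Dnajb9 levels was not tested.

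Some J proteins and a small heat shock protein fell. Hspb6 (Hsp20) went from 7.08, 7.36 and 7.09 to 5.89, 5.98 and 5.83 on stimulation of WT Th2 cells, a difference of -1.28 (SE 0.24, adjusted p = 0.00035) with no overlap. In BAF180-deficient cells the difference was -1.24 (SE 0.24), and stimulated array B (6.74) lay above the other stimulated arrays (5.54 and 5.81) but below the lowest resting one (7.12). After Naïve stimulation Hspb6 stood at -0.40 and 0.08. Dnajc5 (cysteine string protein, a vesicle chaperone) fell by 1.19 and 1.05 in Naïve cells, and Dnajc7, which binds both Hsp70 and Hsp90, fell by 0.58 and 0.74. Neither passed the test in Th2 cells. Hspbap1, which binds a small heat shock protein, stood at 0.69 in WT (adjusted p = 0.084, and 0.043 with the block) and was higher by 1.11 in BAF180-deficient Naïve cells, a call lost without resting array B (0.88). Dnajc11, a J protein of mitochondria, was detected on all 3 stimulated WT and 1 of 3 stimulated BAF180-deficient Th2 arrays and on no other. It passed the filter through that state alone, and its level there, at least 1.2-fold above resting WT Th2 cells, is a description. The count of higher probes after WT Th2 stimulation includes it. Dnaja4 was lower by 0.59 after Naïve and by 0.57 after Th2 stimulation in WT cells. The Naïve call of Dnaja4 was lost without resting array A (-0.43) or stimulated array B (-0.55) or C (-0.47), and the Th2 call without resting array A (-0.62) or B (-0.41) or stimulated array B (-0.59) or C (-0.46).

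Resting Th2 cells were next set against resting Naïve cells, which asks what differed between the 2 resting states. These comparisons share their arrays with the stimulations, so their values are given on their own. In WT cells 10 chaperone probes (18.5%) were higher and 7 (13%) lower, against 18.4% and 16% of all probes. In BAF180-deficient cells 10 (18.5%) were higher and 6 (11.1%) lower, against 18.8% and 15.9%. The lower counts include Hspa1a, described above without a test, and in WT cells the dimmer Dnajc6 probe, detected on 3 arrays only. Of the 29 probes detected on every array, 9 (31%) were higher and 4 (13.8%) lower in either genotype. Of all 5904 such probes, 23.3% were higher and 20.2% lower in WT and 23.2% and 19.2% in BAF180-deficient cells. Hspd1 was higher by 1.77 and 1.55, Cct8 by 1.42 and 1.51, and Dnajc2 by 0.94 and 0.74. The Dnajc2 call was lost without resting Naïve WT array A (0.63) and, in BAF180-deficient cells, without resting Naïve array A (0.62) or resting Th2 array B (0.70) or C (0.60). Hspe1 was higher by 1.17 in WT cells and stood at 0.54 in BAF180-deficient cells. Dnajb9 was lower by 1.95 and 1.53, Dnajc5 by 1.02 and 0.96, Dnajb10 (now Dnajb2) by 0.93 and 0.98, and Hspa1a by at least 5.71-fold and 4.34-fold. The WT call of Dnajb10 was lost with normalization (-0.81) or a fit (-0.93) of the compared arrays only. The early genes and the myeloid probes were lower here too, 8 of 8 and 7 of 7. Of the myeloid probes, 5 were detected on no resting Th2 array in WT and 4 in BAF180-deficient cells, so their count is a description. Leaving out resting Naïve BAF180-deficient array B reduced the count of higher probes in BAF180-deficient cells from 10 to 6, and leaving out resting Th2 array C to 5.

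Whether BAF180 affects these genes was asked in each state. Counting a probe required 4 criteria after the study's methods: a Z-ratio beyond 1.5 (here the difference of normalized log2 values divided by the SD that such differences had across probes, where the study used Z-scores), a false discovery rate below 0.3, a p below 0.05 and a signal above background. In resting Naïve cells 3 of the 54 chaperone probes were lower and 0 were higher in BAF180-deficient cells, where 0.681% of all probes were counted. With Z-score normalization 1 of the 54 was counted. In the other states 0 were counted: in stimulated Naïve (0.112% of all probes), resting Th2 (0.0842%) and stimulated Th2 cells (0.0913%). Before adjustment, 3, 1, 2 and 2 chaperone probes had a p below 0.05 in limma in these states. The median differences of the 54 were -0.01, -0.06, 0.02 and 0.01. The 18 probes under other SYMBOLs had 0 counted in any state, and 2, 0, 0 and 0 at an unadjusted p below 0.05 in limma. Neither set of unadjusted counts was set against the share of all probes, so both are a description.

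The counted probes were 2 of Dnajc6 and 1 of Dnaja4. Dnajc6 is auxilin, a J protein that lets Hsp70 strip the clathrin coat from vesicles. Its brighter probe stood at 7.02, 6.29 and 6.59 in WT and at 5.55, 5.73 and 5.21 in BAF180-deficient resting Naïve cells. The groups did not overlap, and the difference was -1.13 (SE 0.19, adjusted p = 0.017 in limma), or 2.19-fold. The dimmer probe was detected on 2 WT and 0 BAF180-deficient arrays and was at least 1.1-fold lower. It passed the detection filter through 3 WT arrays alone, so its count is a description. With Naïve stimulation Dnajc6 fell to 4.72 ± 0.35 in WT and 4.55 ± 0.23 in BAF180-deficient cells (SD, n = 3), where it was detected on 1 array of 3 each. It fell by 1.91 (SE 0.19) in WT and by 0.95 (SE 0.19) in BAF180-deficient cells, and the difference between these responses was 0.96 (95% interval 0.39 to 1.53), with an adjusted p = 1 in limma (0.0022 before adjustment). That contrast contains the resting genotype difference given above, and stimulated levels lay near background in both genotypes. It is therefore no separate evidence of a different response. Resting Th2 cells were lower than resting Naïve cells by 2.00 and 1.03. Dnaja4 stood at 6.04, 5.53 and 5.63 in WT and at 4.76, 5.29 and 5.0 in BAF180-deficient cells, a difference of -0.72 (SE 0.20, adjusted p = 0.28). Its call was lost without WT array A (-0.56), BAF180-deficient array A (-0.59) or BAF180-deficient array C (-0.71). Without WT array A only 1 of the 3 probes was counted. With the 6 resting Naïve arrays fitted or normalized alone, 0 were counted, and Pbrm1 itself was then counted in 1 state of 4.

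**Figure D3:**
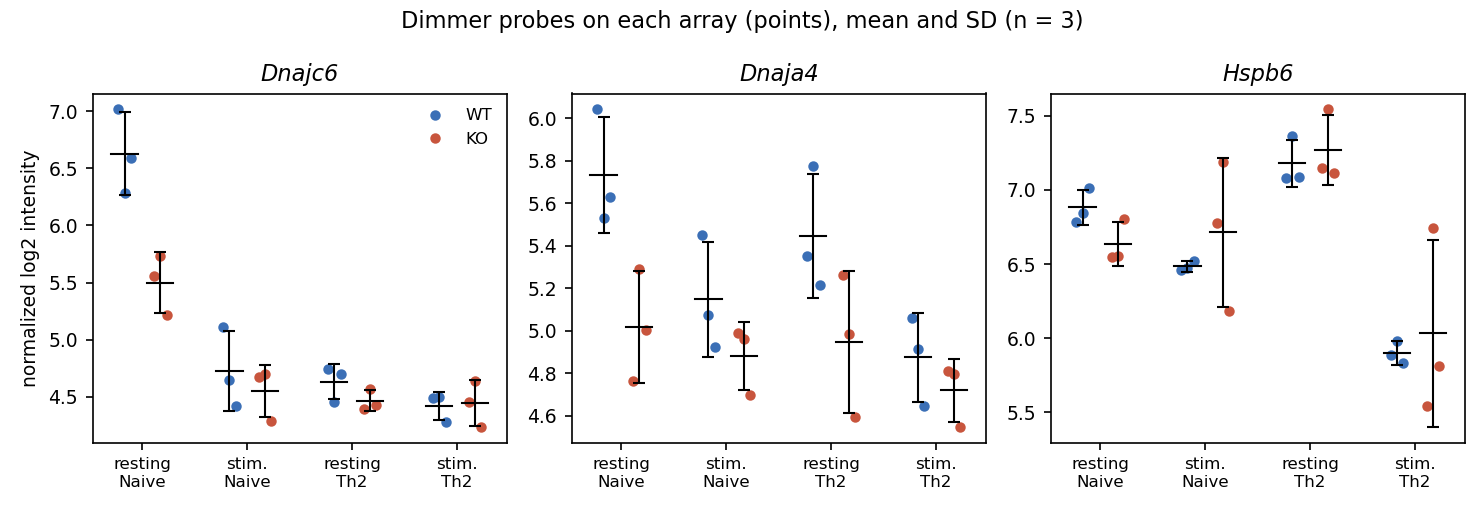
Normalized log2 intensity of the brightest probe of Dnajc6, Dnaja4 and Hspb6 on each array (points; WT blue, BAF180-deficient red) in the 4 states, with the mean (bar) and SD (whiskers) of 3 arrays; axes do not start at 0. In resting Naïve cells the BAF180-deficient points of Dnajc6 and Dnaja4 lie below the WT points, and Hspb6 is lowest in stimulated Th2 cells.

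The test of a genotype difference in a response gave 0 chaperone probes for Naïve stimulation, Th2 stimulation and Th2 against Naïve cells at rest (adjusted p below 0.05 in limma), where 0.00702%, 0% and 0.00702% of all probes passed it. Before adjustment, 2, 1 and 2 probes had a p below 0.05 in limma, counts that were not set against the share of all probes. The 2 in the first and in the last were those of Dnajc6, and the 1 in the second was of Dnajb12 (0.53, 95% interval 0.09 to 0.97). Both Dnajc6 contrasts contain the resting Naïve genotype difference counted above, so they are no separate evidence of a different response. The dimmer Dnajc6 probe also passed the detection filter through WT arrays alone. The lack of calls after adjustment does not show that the genotypes responded alike. The responses of Hspd1 had an SE of 0.36 and those of Hspa9 of 0.15 in either genotype.

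**Figure D4:**
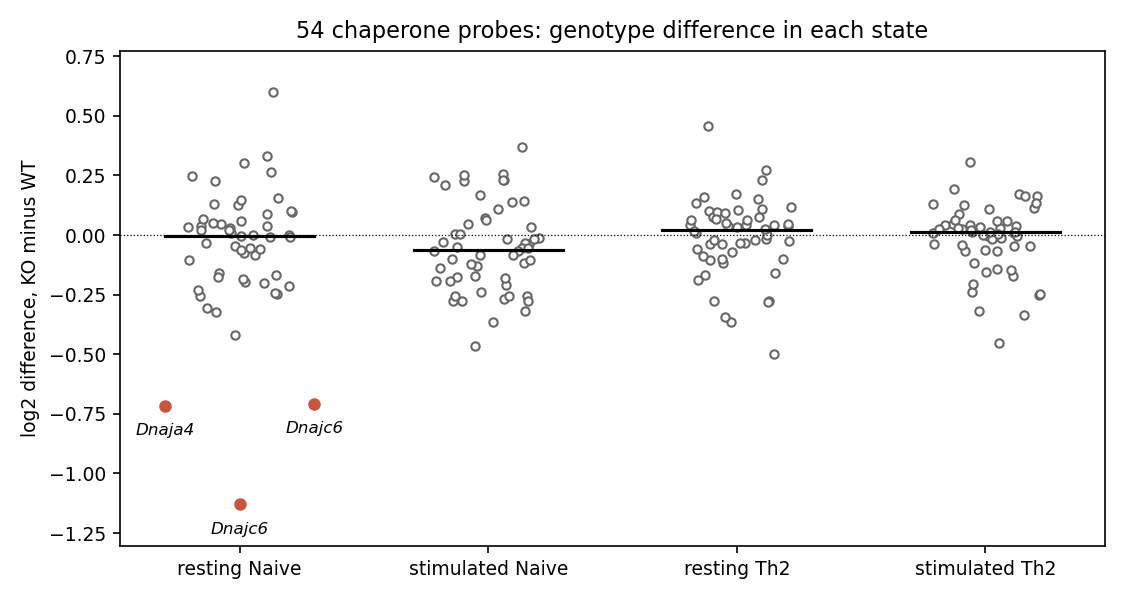
Log2 difference of BAF180-deficient against WT cells for each of the 54 kept chaperone probes (points, spread sideways for visibility) in the 4 states, with the median of the probes as a bar. Red points met the 4 criteria; they are 2 probes of Dnajc6 and 1 of Dnaja4, all in resting Naïve cells and all below 0.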

How the data were processed

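RNA of 24 samples was hybridized to Illumina MouseRef-8 v2 BeadChips, 1 array per sample. The authors read the arrays in GenomeStudio (version 1.6.0 per the labels' processing notes) and deposited an intensity per probe without normalization. A detection p-value per probe and array was deposited with it. From these, background correction against the detection p-values and quantile normalization over all 24 arrays (neqc, offset 16) were run in limma 3.58.1 under R 4.3.3. Probes not detected on any array (detection p above 0.02) were dropped, and log2 values were fitted with 8 group means (lmFit, eBayes), with Benjamini-Hochberg adjustment over all 14246 kept probes. Quantile normalization holds each array to the same distribution, so a shift of all genes together cannot be seen. State comparisons and differences between responses used an adjusted p below 0.05, and genotype comparisons 4 criteria after the study's methods. The Z-ratio, false discovery rate and p were taken from this fit. The fourth, a mean signal above 0, holds for every probe after this background correction and was not applied as a filter. The Z-ratio is the difference of normalized log2 values over its SD across probes, where the study used Z-scores.

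Groups and replicate letters came from the sample labels. Same-lettered WT and BAF180-deficient arrays deviated together from their group means (pooled correlation 0.301, 0.136 and 0.516 for A, B and C), and the study describes pairs of mice, so the letter was also fitted as a block. The fit was tested on simulated data. Where a gene has several probes, the one with the highest mean over all arrays stands for it. Genes were named from a list of principal chaperones, from those counted between genotypes, and from the 5 largest rises and falls per state comparison in WT cells; Hspa2, Dnajc7, Dnajb12, Cct6b and single genes of the pathway and marker lists were named after their values were seen. The members and lists were chosen with earlier results of these data known. Alternatives were other background, normalization, filter, call, probe and sample choices, and each array left out.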

Additional observations from a re-analysis of the deposited data

How the results depend on the processing

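Alternatives mostly kept directions and moved counts. Of 114 calls of named genes, Z-score normalization lost 13 and reversed 2. Normalization of the compared arrays only lost 17, a fit of those arrays only 16, no detection filter 13 and no background correction 5. The losses given beside single genes are therefore not a full list. Genotype: the 3 probes counted in resting Naïve cells became 1 with Z-score normalization, 1 at an adjusted p below 0.05, 0 with normalization of the compared arrays only and 0 with a fit of those arrays only. Without the false discovery rate, 2 were counted in resting Th2 and 1 in stimulated Th2 cells. Pbrm1 was counted in 1 of 4 states with normalization, and in 1 with a fit, of the compared arrays only. Under the 4 criteria of the methods, the higher and lower probes were 11 and 3 (WT) and 9 and 2 (BAF180-deficient) for Naïve stimulation, 6 and 1 (WT) and 10 and 1 (BAF180-deficient) for Th2 stimulation, and 3 and 3 (WT) and 2 and 2 (BAF180-deficient) for Th2 against Naïve cells at rest. A fit of the compared arrays only left 4 lower probes in WT for Naïve stimulation and 4 for Th2 against Naïve cells. The cause of these moves was not tested, apart from the fewer arrays and the stricter criteria by construction. Hspa8 reversed under Z-score normalization in WT cells, to -0.44 for Naïve stimulation and -0.30 for Th2 against Naïve cells at rest, neither past the threshold.

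Leaving out 1 array gave 1 to 3 genotype probes in resting Naïve cells and 0 to 0 in the other states. Naïve stimulation gave 17 to 20 higher and 6 to 10 lower in WT and 16 to 24 higher and 5 to 7 lower in BAF180-deficient cells. Th2 stimulation gave 12 to 15 and 2 to 3 in WT and 11 to 14 and 2 to 5 in BAF180-deficient cells, the lowest without stimulated array A (2) and then without resting array B or C or stimulated array B (3). Th2 against Naïve cells gave 9 to 11 and 6 to 10 in WT and 5 to 10 and 5 to 7 in BAF180-deficient cells. The tests of a difference between responses stayed at 0 to 0, and Pbrm1 was counted in 3 to 4 states (3 without resting Naïve BAF180-deficient array B).

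With the replicate letter as a block, 7 calls of member probes changed. Besides those given for Cct2, Hspa4, Hspbap1, Cct8 and Dnajc3, Dnajc8 passed the test after Naïve stimulation in BAF180-deficient cells (0.50, adjusted p = 0.042 in limma). No count of calls moved by over 1.5 times. A BeadChip block was not run, since the columns name no chip. Dim probes such as Hspa5, Dnajc6 and Cct6b lie near background, where differences are compressed.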
